A study of Xenopus laevis with 12 samples.

Results

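The eye field (EF) of *Xenopus laevis* neurulae was compared directly with the lateral endoderm (LE) of embryos at stage 15. The comparison took the 3 EF arrays, whose tissue the labels call eye primordia, and the 3 LE arrays, 6 of the 12 arrays of the series. The other 6 arrays, of posterior neural plate (PNP) and whole embryos at the same stage, entered the estimate of the spread and served as further reference points. The labels name no treatment, transgene or injected RNA for any of the 4 tissues. RNA of 40 pieces cut from the embryo was pooled for each EF, LE and PNP array, and the 3 arrays of a tissue came from embryos of different females on different days. EF pieces were cut at the anterior neural plate and took in the mesendoderm beneath it. LE pieces came from the flank, midway between EF and PNP along the body axis, and how deep those cuts went is not given in the sources used here. The comparison asks which transcripts separate the tissue that will form the eyes from tissue outside the neural plate.

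The eye field is the part of the anterior neural plate from which both retinas arise. It is marked by the eye field transcription factors (EFTFs), a network of homeobox, T-box and nuclear receptor genes that depend on each other and on *otx2*, and the neural plate itself forms where signals of the BMP family are blocked by antagonists from the underlying mesoderm. The flank lies outside the neural plate. Its endoderm is specified by GATA and Sox17 factors, its mesoderm by BMP-dependent genes, and its surface is the embryonic epidermis, in which mucus-secreting cells, ionocytes and multiciliated cells are intermingled.

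RNA was hybridised to the Affymetrix *X. laevis* array, and each value is the log2 of the signal of 1 probe set, a group of short probes to 1 transcript. Probe sets were called where EF and LE differed by 2-fold or more with an adjusted p under 0.05, and gene list members passed on that p alone. Each array's background ceiling was its brightest bacterial control probe set, log2 2.26 to 2.57 in EF and 2.26 to 2.40 in LE. On an array, 65.4% to 78.2% of probe sets lay above it in EF and 75.8% to 79.6% in LE. Arrays of 1 tissue correlated at r = 0.983 to 0.984 in EF and 0.986 to 0.992 in LE, and EF with LE arrays at 0.915 to 0.934. LE replicate 3 stood apart in its technical controls. Its hybridisation controls had a mean log2 signal of 9.86, against 9.14 to 9.42 on the other 5 arrays, and its actin probe sets differed by 2.45 between the 3' and 5' ends, against 0.68 to 1.79. For GAPDH probe sets that difference was 2.16, the lowest of the 6 arrays, against 2.57 to 3.60. The probe set counts and some of the list counts are therefore given without it as well.

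A total of 858 probe sets were higher in EF than in LE (5.54% of the 15491 tested) and 976 were lower (6.30%). Counted by gene, with 1 probe set for each of 6505 genes, 399 were higher (6.13%) and 465 lower (7.15%). Large changes were more frequent among the lower ones, since 52 probe sets were at least 8-fold higher in EF and 123 at least 8-fold lower. Without LE replicate 3 the counts were 769 higher and 960 lower. Transcription factors of the anterior neural plate were among the largest rises, with *otx2* 46.8-fold, *fezf2* 35.4-fold, *lhx2* 23.9-fold and *pax6* 22.6-fold higher in EF. Among the largest falls were *mmp3*, *slc26a4l*, *itln1* and *aldh1a2*, genes of a matrix protease, an anion transporter, a secreted epidermal lectin and an enzyme that makes retinoic acid, which were 86.8-fold, 46.3-fold, 35.5-fold and 30.7-fold lower in EF.

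**Figure D1:**
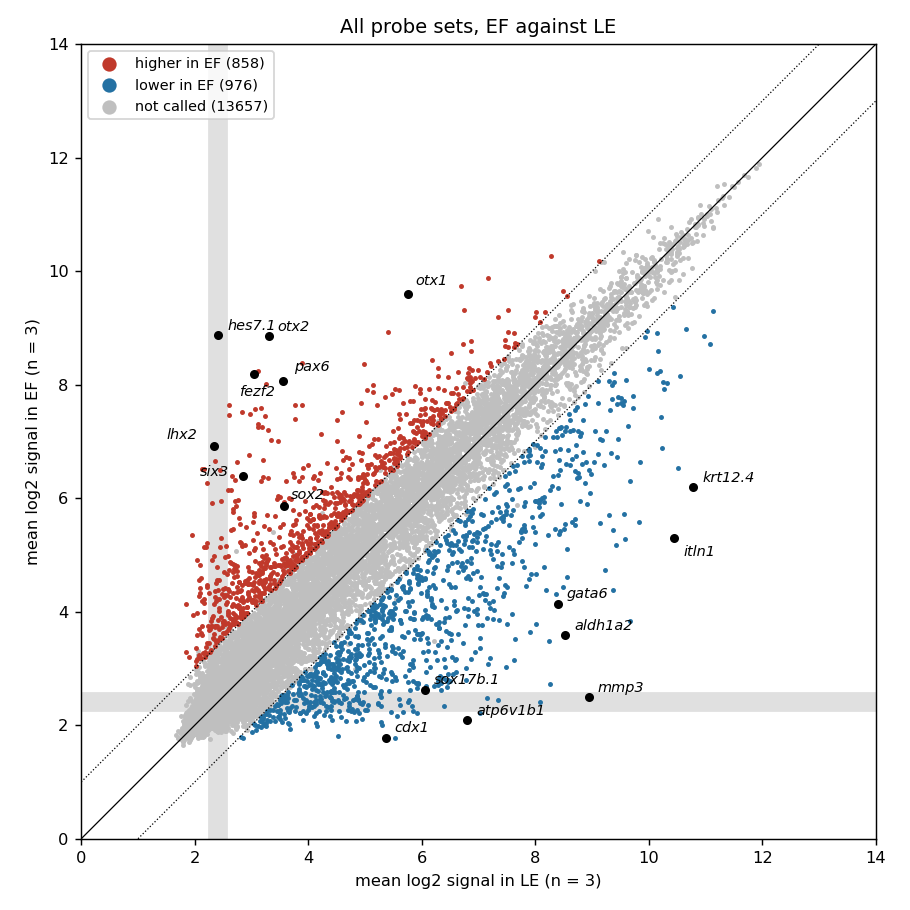
Mean log2 signal of every probe set in EF (vertical axis, n = 3) against LE (horizontal axis, n = 3). Red points mark the 858 probe sets called higher in EF and blue points the 976 called lower, dotted lines mark 2-fold, grey bands the range of the background ceilings of the 6 arrays, and black points named genes. At 8-fold or more from the diagonal lie 52 red and 123 blue points.

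Most EFTFs that were measured were higher in EF. The log2 signal of *otx2*, the head homeobox gene that precedes the EFTFs, was 9.02, 8.77 and 8.77 in EF, against 2.8, 2.99 and 4.12 in LE (log2 difference 5.55 ± 0.35 SE, adjusted p = 3.3e-07). Every EF array lay more than 4 units above every LE array, and LE replicate 3 was the highest of the LE arrays. *Pax6*, the paired-box gene needed for eyes from flies to vertebrates, had log2 signals of 8.5, 7.94 and 7.72 in EF, against 3.35, 3.27 and 4.05 in LE (log2 difference 4.50 ± 0.31 SE, adjusted p = 6.3e-07). *Rax*, the retinal homeobox gene, had 6.76, 6.58 and 6.19 in EF, against 2.34, 2.26 and 1.87 in LE (log2 difference 4.35 ± 0.31 SE, adjusted p = 8.8e-07). In LE only 1 of 3 *rax* values lay above the ceiling, whereas *pax6* lay above it on all 6 arrays. *Lhx2*, a LIM homeobox gene, had 7.26, 6.87 and 6.62 in EF, against 2.29, 2.07 and 2.65 in LE (log2 difference 4.58 ± 0.37 SE, adjusted p = 2.4e-06). *Six3*, a homeobox gene of the anterior end of the neural plate, had 7.04, 6.03 and 6.08 in EF, against 2.63, 3.04 and 2.88 in LE (log2 difference 3.53 ± 0.28 SE, adjusted p = 2.0e-06). The EF and LE arrays did not overlap for any of these 5 genes. That was also the case for 25.9% of all genes with EF above LE and for 19.0% with EF below. These shares apply wherever a lack of overlap is stated below, so that it is common by itself.

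The EFTFs *six6*, *tbx3* and *nr2e1* passed with smaller differences. The gene *six6*, the sister gene of *six3*, had log2 signals of 5.76, 4.33 and 5.38 in EF, against 1.79, 2.11 and 3.75 in LE (log2 difference 2.61 ± 0.51 SE, adjusted p = 0.0024), so that LE replicate 3 came within 1 unit of EF replicate 2. It was the only LE array with *six6* above the ceiling. *Tbx3*, a T-box repressor, had 5.59, 4.07 and 5.27 in EF, against 2.76, 2.37 and 2.63 in LE (log2 difference 2.39 ± 0.36 SE, adjusted p = 3.3e-04). *Nr2e1*, the nuclear receptor also called tailless, was dim in both tissues, with 3.60, 2.99 and 3.04 in EF, against 2.42, 2.42 and 2.36 in LE (log2 difference 0.81 ± 0.16 SE, adjusted p = 0.0029). EF replicate 2 was the lowest EF array for *six6*, *tbx3* and *nr2e1*, and all 3 genes still kept the tissues apart. *Pax2*, which later marks the optic stalk, rose by 2.22 and *sfrp1*, a secreted Wnt inhibitor, by 2.70. A probe set to the other copy of *tbx3* was near the ceiling in both tissues and differed by 0.10. In all, 10 of the 16 measured members of the eye field list, which has 20 members, were higher in EF, 0 were lower and 6 did not pass, with a median log2 difference of 2.37. Among all genes 15.9% were higher and 11.8% lower at the same limit, with a median of 0.05. The study's own list of eye genes, which its authors drew partly from these arrays and which is thus not independent evidence, had 14 of 15 members higher, among them *crx* (2.27), the photoreceptor homeobox gene, *hesx1* (3.73) and *hes1* (2.54). Its member that missed the test was *vsx1*, a retinal homeobox gene with log2 signals of 6.66, 2.74 and 5.81 in EF, against 2.53, 2.91 and 2.74 in LE (adjusted p = 0.068). There EF replicate 2 lay within the LE range and the other EF arrays far above it, and without that array the difference was 3.51 (adjusted p = 0.0022).

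**Figure D2:**
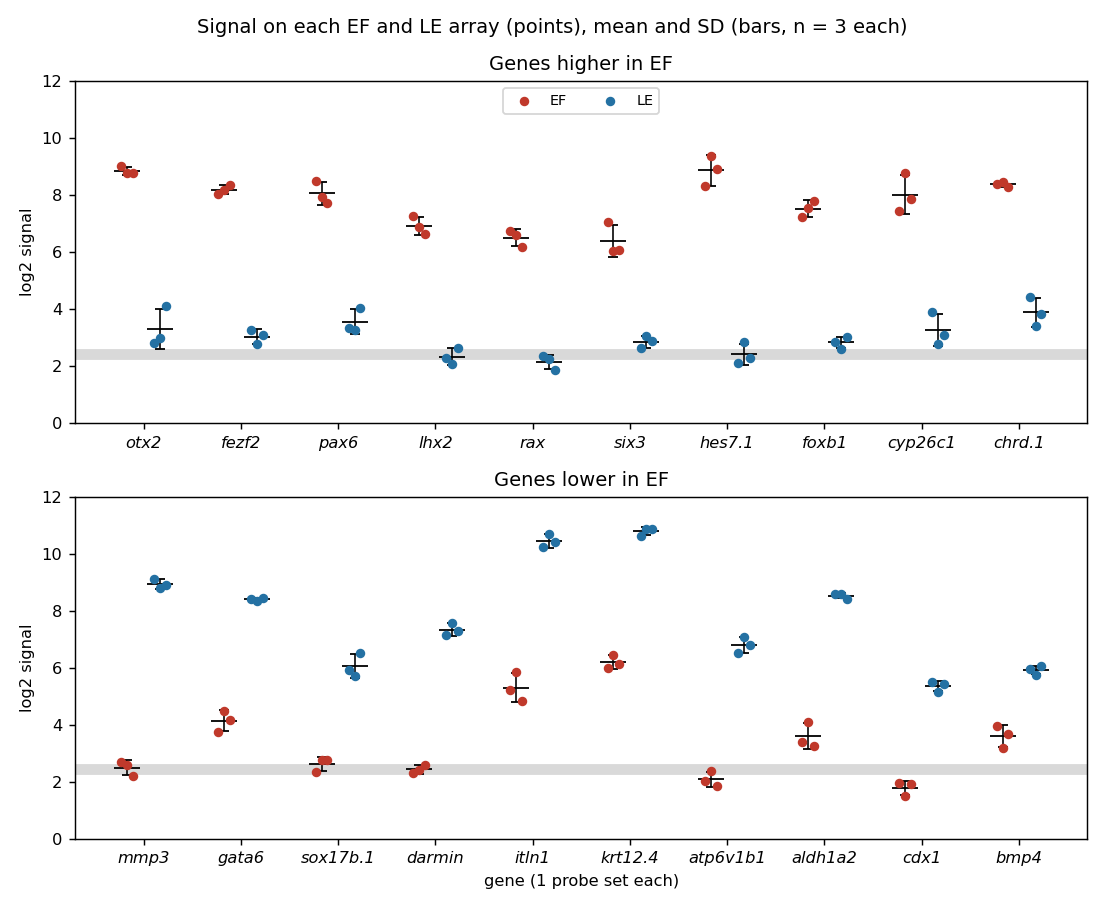
Log2 signal of 20 named genes (horizontal axis, 1 probe set each) on the 3 EF arrays (red) and the 3 LE arrays (blue), with mean and SD as black bars and the range of the background ceilings in grey. The upper panel shows genes higher in EF, such as *otx2* at 8.77 to 9.02 in EF against 2.8 to 4.12 in LE, and the lower panel genes lower in EF, such as *mmp3* at 2.2 to 2.69 in EF against 8.80 to 9.12 in LE.

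Transcription factors of the forebrain rose with the eye genes. *Fezf2*, a zinc finger repressor of the rostral forebrain, had log2 signals of 8.03, 8.16 and 8.35 in EF, against 3.26, 2.77 and 3.08 in LE (log2 difference 5.14 ± 0.18 SE, adjusted p = 5.7e-09). *Foxb1*, a forkhead gene of the neural plate, had 7.21, 7.55 and 7.79 in EF, against 2.86, 2.61 and 3.02 in LE (log2 difference 4.69 ± 0.17 SE, adjusted p = 7.7e-09). Both genes were near the ceiling in LE, and arrays of the same tissue lay close together. *Otx1*, the sister of *otx2*, had 9.93, 9.32 and 9.55 in EF, against 5.65, 5.46 and 6.19 in LE (log2 difference 3.84 ± 0.33 SE, adjusted p = 4.1e-06), so that it was well above the ceiling in LE too. *Hesx1*, a homeobox repressor of the anterior neural ridge, had 6.16, 6.66 and 6.35 in EF, against 2.48, 2.58 and 2.91 in LE (log2 difference 3.73 ± 0.48 SE, adjusted p = 1.1e-04). *Foxd4l1.1*, a forkhead gene of the early neural plate, was under the ceiling on all 3 LE arrays, with 4.70, 5.33 and 4.72 in EF, against 2.19, 2.04 and 1.89 in LE, and was at least 6.04-fold higher in EF. Such a bound takes, for the dim tissue, the ceiling of each array or the signal where that was higher. Further rises were *foxd1* (3.60), which later marks the temporal retina, *pou3f2* (3.57), the orphan receptor gene *nr2f1* (3.13), the Hedgehog pathway factor *gli3* (2.76), *irx1* (2.59) and *barhl2* (2.07). Of the 30 measured members of the forebrain list 19 were higher in EF, 1 was lower and 10 did not pass, with a median of 1.78. That made 63.3% higher and 3.33% lower, against 15.9% and 11.8% of all genes. The lower one was *emx2*, a homeobox gene of the dorsal forebrain, with 6.63, 6.64 and 6.48 in EF, against 7.58, 7.63 and 7.84 in LE (log2 difference -1.10 ± 0.31 SE, adjusted p = 0.023). Its call was lost without EF replicate 1 or 3 or without LE replicate 2 or 3.

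General neural plate genes were higher in EF, but they were not absent from LE. *Sox2*, the neural progenitor factor of the SoxB1 group, had log2 signals of 5.95, 5.86 and 5.76 in EF, against 2.54, 3.73 and 4.42 in LE (log2 difference 2.29 ± 0.36 SE, adjusted p = 4.5e-04). Its LE arrays spread over almost 2 units and stayed under the EF arrays. *Sox3*, of the same group, had 7.98, 7.96 and 7.71 in EF, against 5.09, 5.21 and 5.14 in LE (log2 difference 2.73 ± 0.20 SE, adjusted p = 1.2e-06). *Ncam1*, the neural cell adhesion molecule, had 8.69, 9.28 and 8.79 in EF, against 5.64, 5.97 and 4.57 in LE (log2 difference 3.52 ± 0.38 SE, adjusted p = 2.2e-05). *Msi1*, a neural RNA-binding protein, had 10.41, 10.19 and 10.21 in EF, against 8.68, 8.25 and 7.90 in LE (log2 difference 1.99 ± 0.18 SE, adjusted p = 7.0e-06). No EF array of these 3 genes overlapped with LE, and all LE arrays were above the ceiling. N-cadherin (*cdh2*, 1.88), the neural tubulin *tubb2b* (2.25), *dpysl2* (3.60) and *zic1* (2.2) rose as well. The list counted 15 higher, 3 lower and 10 not passing of 28 measured, with a median of 0.76. Its higher share was 53.6%, against 15.9% of all genes, and its lower share, 10.7%, was near the 11.8% of all genes. The 3 lower members were *sall3* (-2.09), a spalt-family gene, *pou5f3.1* (-1.91), a POU factor of posterior and uncommitted cells, and *stmn1* (-0.67), which binds tubulin and whose call was lost without EF replicate 1 or 3 or LE replicate 2. Genes of primary neurogenesis, the early birth of neurons, counted 5 higher and 1 lower of 14. These shares were 35.7% and 7.14%, against 15.9% and 11.8% of all genes. The rises included the Notch ligand gene *dll1* (2.06) and *mycn* (1.54), and the fall was *gadd45g* (-2.14), a stress and cell cycle gene.

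Genes of the neural plate border went both ways. In the list of neural crest and border genes 7 of 19 were higher (36.8%, against 15.9% of all genes). Of the others 5 were lower (26.3%, against 11.8%) and 7 did not pass. Those higher in EF included *zic5* (2.88), *sox9* (1.39) and *snai2* (1.32), which act in the crest or its border. Those lower in EF were *gbx2.1* (-2.83) and *gbx2.2* (-2.02), homeobox genes of the posterior border, *ets1* (-2.07), an ETS factor of crest and blood vessels, *tfap2a* (-1.31), which also acts in epidermis and *pax3* (-0.90), which also acts in somites. The *pax3* fall depended on the probe set, since its further probe sets differed by -0.68 to 1.69. *Gbx2.1* had log2 signals of 2.85, 3.14 and 2.61 in EF, against 5.53, 5.88 and 5.68 in LE, with no overlap between the tissues. *Ag1*, a marker of the cement gland, a mucus gland in front of the eye field, was above the ceiling on all 6 arrays, with 8.98, 8.56 and 8.74 in EF, against 7.03, 7.17 and 6.40 in LE (log2 difference 1.89 ± 0.21 SE, adjusted p = 2.5e-05). The placode and cement gland list had 3 higher and 2 lower of 14. These shares, 21.4% and 14.3%, were near those of all genes. The larger fall was *dlx3* (-1.91), a homeobox gene of the ectoderm outside the plate.

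EF pieces, which included mesendoderm, carried transcripts of part of its genes. The BMP antagonist chordin (*chrd.1*), made by the organizer and its descendants, had log2 signals of 8.40, 8.46 and 8.28 in EF, against 4.42, 3.40 and 3.83 in LE (log2 difference 4.49 ± 0.22 SE, adjusted p = 5.0e-08). *Gsc*, a homeobox gene of the prechordal plate, had 5.38, 4.0 and 5.08 in EF, against 1.97, 1.85 and 2.47 in LE (log2 difference 2.72 ± 0.33 SE, adjusted p = 5.8e-05). *Shh*, the Hedgehog ligand of the midline, had 6.28, 4.93 and 6.01 in EF, against 2.51, 2.8 and 3.80 in LE (log2 difference 2.70 ± 0.34 SE, adjusted p = 9.2e-05). *Dkk1*, a Wnt antagonist of the head organizer, had 5.02, 3.90 and 5.96 in EF, against 2.30, 2.48 and 2.83 in LE (log2 difference 2.42 ± 0.40 SE, adjusted p = 7.6e-04). EF replicate 2 was the lowest EF array for *gsc*, *shh* and *dkk1*, yet still above all LE arrays. *Gsc* was above the ceiling on 1 of 3 LE arrays. Of 20 measured members of the prechordal and organizer list 8 were higher (40%, against 15.9% of all genes) and 11 did not pass. The higher ones included *otx2*, also on the eye field and forebrain lists, and *dkk1* and *sfrp2*, also on the Wnt list. The count is thus not one of mesendoderm genes alone. *Lhx1*, also a kidney gene and under the ceiling on all EF arrays, was at least 2.09-fold lower. Among those that did not pass were *cer1*, *frzb*, *foxa4* and *hhex*. Of 12 notochord genes 6 were higher (50%, against 15.9% of all genes) and 0 lower, among them the collagen gene *col9a1* (2.24) and *matn4* (2.29). The notochord and organizer lists both hold *chrd.1*, *shh*, *admp*, *foxa4*, *nog*, *not* and *tbxt*, so their counts are not independent. *Tbxt* did not pass. The summed linear signal of the notochord list was 484 to 601 in EF, against 86.0 to 97.0 in LE, and more of it came from *chrd.1* in EF than from its other members together. The sum was 495 to 546 in whole embryos, a range within that of EF, and 2038 to 2429 in PNP. The part of these cells in the rises of other genes was not tested. In pooled pieces of tissue, fewer cells of a type and less RNA per cell cannot be told apart.

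Endoderm markers separated the tissues in the other direction. *Gata6*, a GATA factor of endoderm and heart, had log2 signals of 3.76, 4.48 and 4.18 in EF, against 8.39, 8.33 and 8.46 in LE (log2 difference -4.26 ± 0.19 SE, adjusted p = 2.7e-08). *Sox17b.1*, which specifies endoderm, had 2.36, 2.76 and 2.75 in EF, against 5.94, 5.71 and 6.52 in LE (log2 difference -3.43 ± 0.23 SE, adjusted p = 5.7e-07). *Darmin*, a peptidase gene of the embryonic gut, had 2.29, 2.43 and 2.60 in EF, against 7.14, 7.58 and 7.29 in LE (log2 difference -4.90 ± 0.23 SE, adjusted p = 3.4e-08). *Gata5*, the other endodermal GATA factor that passed, had 2.35, 2.57 and 2.59 in EF, against 5.3, 5.16 and 5.40 in LE (log2 difference -2.78 ± 0.17 SE, adjusted p = 2.3e-07). EF and LE did not overlap for any of these 4 genes, as for 19.0% of all genes with EF below LE. In EF all but *gata6* lay near the ceiling, with *darmin* above it on 2 of 3 arrays. *Vegt*, the T-box gene that starts endoderm and is also expressed in mesoderm, had 3.19, 3.93 and 3.82 in EF, against 8.2, 7.86 and 7.68 in LE (log2 difference -4.27 ± 0.42 SE, adjusted p = 1.2e-05). The protease gene *mmp3* had the largest fall of all named genes, with 2.69, 2.60 and 2.2 in EF, against 9.12, 8.80 and 8.89 in LE (log2 difference -6.44 ± 0.18 SE, adjusted p = 2.0e-09), and the transporter gene *slc26a4l* had 2.51, 3.43 and 2.22 in EF, against 8.32, 8.19 and 8.26 in LE (log2 difference -5.53 ± 0.27 SE, adjusted p = 4.5e-08). In EF both *mmp3* and *slc26a4l* were above the ceiling on 2 of 3 arrays. Both are on the endoderm list because earlier results of these data showed them low in EF. Their falls are therefore no independent support. Further probe sets of *gata6* and *vegt* were near the ceiling in both tissues and differed by -0.19 and -0.08.

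The endoderm list as a whole was less uniform. Of 43 measured members 13 were lower in EF, 3 were higher and 27 did not pass, with a median of -0.15. The genes *mmp3*, *slc26a4l*, *ca12* and *spam1* had been put on that list because earlier results of these data showed them low in EF. Without them 9 of 39 were lower and 3 higher, 23.1% and 7.69% against 11.8% and 15.9% of all genes. *Hhex*, a homeobox gene of the anterior endoderm, was under the ceiling on all 6 arrays. Smaller falls were *sox17a* (-1.5), the pioneer factor *foxa1* (-1.04) and *tmem144* (-1.17). The 3 higher members were *zic4* (2.12), a zinc finger gene also on the neural plate list, *tspan1* (1.5), a tetraspanin, and *serpina1* (1.03), a protease inhibitor. All 5 LE markers of the study that were measured were lower in EF, with a median of -3.16, and the same caution holds for them as for its eye genes. The summed signal of the 39 genes was 648 to 807 in EF, against 1594 to 1791 in LE. It was 1607 to 1863 in PNP and 1651 to 1968 in whole embryos, so that the sum was low in EF and not raised in LE.

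LE pieces also carried transcripts of mesoderm genes such as *foxf1*. Beside *gata6* and *gata5*, the list of lateral plate, blood and heart genes had *gata2*, a GATA factor of blood and ectoderm, with log2 signals of 2.76, 2.69 and 2.79 in EF, against 6.03, 5.91 and 5.76 in LE (log2 difference -3.16 ± 0.23 SE, adjusted p = 9.3e-07). *Ventx2.1*, a ventral homeobox gene downstream of BMP, had 4.13, 4.09 and 4.75 in EF, against 6.96, 6.88 and 7.41 in LE (log2 difference -2.76 ± 0.22 SE, adjusted p = 2.1e-06). *Foxf1*, a forkhead gene of the lateral plate, had 2.99, 2.76 and 3.07 in EF, against 5.2, 5.19 and 5.08 in LE (log2 difference -2.21 ± 0.16 SE, adjusted p = 1.0e-06). The EF and LE arrays did not overlap for any of the 3, as for 19.0% of all genes with EF below LE. *Gata3* (-2.79), *ventx2.2* (-1.64) and *hand1* (-1.48), a basic helix-loop-helix gene of lateral mesoderm, were lower in EF too. The study lists *gata2*, *gata3*, *gata5* and *gata6* as endoderm markers, so that these genes do not tell mesoderm from endoderm. The list counted 13 lower, 4 higher and 23 not passing of 40, and 10 lower and 2 higher without LE replicate 3. With all arrays the shares were 32.5% lower and 10% higher, against 11.8% and 15.9% of all genes. The higher members included *msx1* (1.00) and *ventx1.1* (0.84), which are also BMP targets, although with all probe sets of the gene averaged *ventx1.1* differed by 0.35 and did not pass (adjusted p = 0.079). The kidney list had 4 members higher and 4 lower of 14, 28.6% each against 15.9% and 11.8% of all genes. Of its higher members *irx3* (1.73), *irx1* and *pax2* are also neural genes and *wnt11b* is a Wnt ligand gene, and *osr1* (-1.30), an early gene of the kidney field, was lower.

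Genes of the paraxial mesoderm, which forms somites and muscle, differed in both directions. *Msgn1*, which marks unsegmented mesoderm, was under the ceiling on all EF arrays, with log2 signals of 1.90, 2.2 and 1.92 in EF, against 5.58, 5.49 and 4.80 in LE, and was at least 7.26-fold lower in EF. *Pcdh8.2*, a protocadherin of segmenting mesoderm, had 6.80, 6.57 and 6.55 in EF, against 9.01, 8.79 and 8.88 in LE (log2 difference -2.26 ± 0.15 SE, adjusted p = 4.8e-07). *Tbx6* (-1.90), a T-box gene of unsegmented mesoderm, and the creatine kinase gene *ckm* (-2.12) fell as well. With all its probe sets averaged *ckm* differed by -0.54 and did not pass (adjusted p = 0.27). The contractile genes that passed were higher in EF. The myosin light chain genes *mylpf* (2.12) and *myl1* (1.80) and the troponin gene *tnnt3* (1.60) passed, and *smyd1*, a muscle methyltransferase gene, was at least 3.56-fold higher. *Mylpf* had log2 signals of 4.26, 5.29 and 3.94 in EF, against 2.37, 1.60 and 3.16 in LE, with the highest value in EF replicate 2, and averaged 7.66 ± 0.67 in whole embryos (SD, n = 3). The list counted 7 higher, 8 lower and 26 not passing of 41, shares of 17.1% and 19.5% against 15.9% and 11.8% of all genes. With 16 added to every signal before the log, which damps dim genes, 1 was higher and 7 were lower. Its summed signal was 1048 to 1226 in EF, against 1850 to 2029 in LE, 3433 to 3605 in PNP and 2964 to 4192 in whole embryos.

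Genes of the Hox and Cdx families, which mark position along the body axis, were lower in EF where they passed. *Cdx1*, a caudal homeobox gene that activates Hox genes, was under the ceiling on all EF arrays, with log2 signals of 1.96, 1.49 and 1.90 in EF, against 5.5, 5.16 and 5.43 in LE, and at least 7.64-fold lower in EF. *Hoxa3* had 2.65, 3.46 and 2.48 in EF, against 6.12, 6.52 and 6.34 in LE (log2 difference -3.47 ± 0.34 SE, adjusted p = 1.1e-05), and *hoxa2* had 2.8, 3.2 and 2.78 in EF, against 5.54, 5.18 and 5.21 in LE (log2 difference -2.38 ± 0.24 SE, adjusted p = 1.4e-05). Both are Hox genes of the hindbrain and pharyngeal level, and *hoxa3* was above the ceiling on 2 of 3 EF arrays. *Hoxb4* (-1.39), above the ceiling on 1 EF array, and *cdx4*, under it on all EF arrays and at least 1.78-fold lower, completed the 5 members of the Hox and Cdx list that were lower in EF, though the call of *cdx4* was lost without EF replicate 1 or 3 or LE replicate 1. None was higher, and 16 of 21 did not pass, of which 7 lay under the ceiling on all 6 arrays. The share of lower members was 23.8%, against 11.8% of all genes.

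Most epidermal genes were lower in EF. *Itln1*, the intelectin secreted by mucus cells of the skin, had log2 signals of 5.24, 5.84 and 4.82 in EF, against 10.23, 10.70 and 10.42 in LE (log2 difference -5.15 ± 0.24 SE, adjusted p = 3.8e-08). *Krt12.4*, a keratin of the embryonic epidermis, had 5.98, 6.45 and 6.14 in EF, against 10.62, 10.88 and 10.85 in LE (log2 difference -4.60 ± 0.15 SE, adjusted p = 5.3e-09). Both genes stayed well above the ceiling in EF. *Grhl1*, a grainyhead factor that drives epidermal genes, had 6.57, 6.65 and 6.04 in EF, against 8.96, 8.94 and 9.06 in LE (log2 difference -2.57 ± 0.19 SE, adjusted p = 1.3e-06). *Esrp1*, an epithelial splicing factor, had 4.79, 4.96 and 4.94 in EF, against 7.73, 7.94 and 7.63 in LE (log2 difference -2.87 ± 0.16 SE, adjusted p = 1.5e-07). The EF and LE arrays did not overlap for any of these 4 genes, as for 19.0% of all genes with EF below LE. Of 31 measured members of the epidermis list, which has 51, 24 were lower in EF, 0 were higher and 7 did not pass, with a median of -1.74. That made 77.4% lower, against 11.8% of all genes. Without LE replicate 3 the count was again 24. The keratins *krt12.5* (-2.40), *krt70* (-1.83), *krt18.1* (-1.90), *krt7* (-1.68) and *krt8.1* (-1.74), the envelope protein genes *ppl* (-2.59) and *evpl* (-2.36) and *grhl3* (-2.26) were among them. The summed signal of the list was 2916 to 3644 in EF, against 13693 to 15106 in LE and 12738 to 13623 in whole embryos. The LE range lay above that of whole embryos. The keratin genes *krt61* and *krt62* were under the ceiling on all 6 arrays. By these markers LE pieces carried epidermal and mesodermal beside endodermal transcripts, and their part in the falls of other genes was not tested.

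Many junction genes were lower in EF. *Cdh1*, the epithelial cadherin gene, had log2 signals of 2.87, 2.69 and 1.97 in EF, against 5.41, 4.91 and 4.27 in LE (log2 difference -2.35 ± 0.44 SE, adjusted p = 0.0017). N-cadherin (*cdh2*) had 8.53, 8.0 and 7.95 in EF, against 6.21, 6.19 and 6.43 in LE (log2 difference 1.88 ± 0.24 SE, adjusted p = 8.7e-05). The 2 cadherins differed in opposite directions, with no overlap of EF and LE in either, and *cdh1* was above the ceiling on 2 of 3 EF arrays. Of 31 measured junction genes 14 were lower in EF (45.2%, against 11.8% of all genes), *cdh2* was higher and 16 did not pass. The falls comprised claudins of tight junctions such as *cldn7* (-2.04) and *cldn4* (-1.24) and desmosome genes such as *pkp3* (-2.11), *jup* (-1.95) and *dsp* (-1.14). The junction and epidermis lists both hold *cdh1*, *cldn7*, *cldn4*, *pkp3*, *dsp*, *dsc3* and *epcam*.

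Genes of ionocytes, the acid-secreting and ion-transporting cells of the skin, and of the proton pump were lower in EF where they passed. *Atp6v1b1*, a proton pump subunit typical of such cells, was under the ceiling on all EF arrays, with log2 signals of 2.02, 2.37 and 1.86 in EF, against 6.51, 7.08 and 6.80 in LE, and at least 20.6-fold lower in EF. *Foxi1*, which specifies ionocytes, had 2.11, 2.41 and 2.26 in EF, against 5.01, 5.18 and 4.79 in LE, at least 5.91-fold lower. *Ca12*, a carbonic anhydrase gene, had 2.26, 2.67 and 2.28 in EF, against 7.99, 8.13 and 8.12 in LE (log2 difference -5.68 ± 0.28 SE, adjusted p = 5.9e-08). It was above the ceiling on 1 of 3 EF arrays. The proton pump subunit gene *atp6v0a4* (at least 8.52-fold), the sodium pump subunit gene *atp1b2* (-3.63) and *ubp1* (-2.37), which also acts in ionocytes, fell too. The list joins ionocyte genes with many subunit genes of the proton pump, so it does not count ionocyte markers alone. All 16 members that passed were lower in EF, of 21 measured, with a median of -1.45. The lower share was 76.2%, against 11.8% of all genes, and the count was the same without LE replicate 3. *Ca12* was among the genes put on the endoderm list because earlier results of these data showed them low in EF. Its fall is therefore no independent support, and the ionocyte count was not redone without it. Multiciliated cell genes counted 14 lower and 0 higher of 26 measured, with a median of -0.63. The lower share was 53.8%, against 11.8% of all genes. The count of lower members was 11 to 13 when any 1 of the 6 arrays was left out. It was 10 with 16 added to every signal and 18 with the replicate number as a block. *Dynlrb2*, a dynein light chain gene, had 2.86, 3.18 and 3.04 in EF, against 5.54, 5.90 and 6.11 in LE (log2 difference -2.82 ± 0.25 SE, adjusted p = 4.5e-06), and *ccno*, the cyclin that multiplies centrioles, had 2.41, 1.96 and 2.32 in EF, against 4.60, 4.88 and 4.95 in LE (log2 difference -2.58 ± 0.28 SE, adjusted p = 2.8e-05). *Ccno* too was above the ceiling on 1 of 3 EF arrays.

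**Figure D3:**
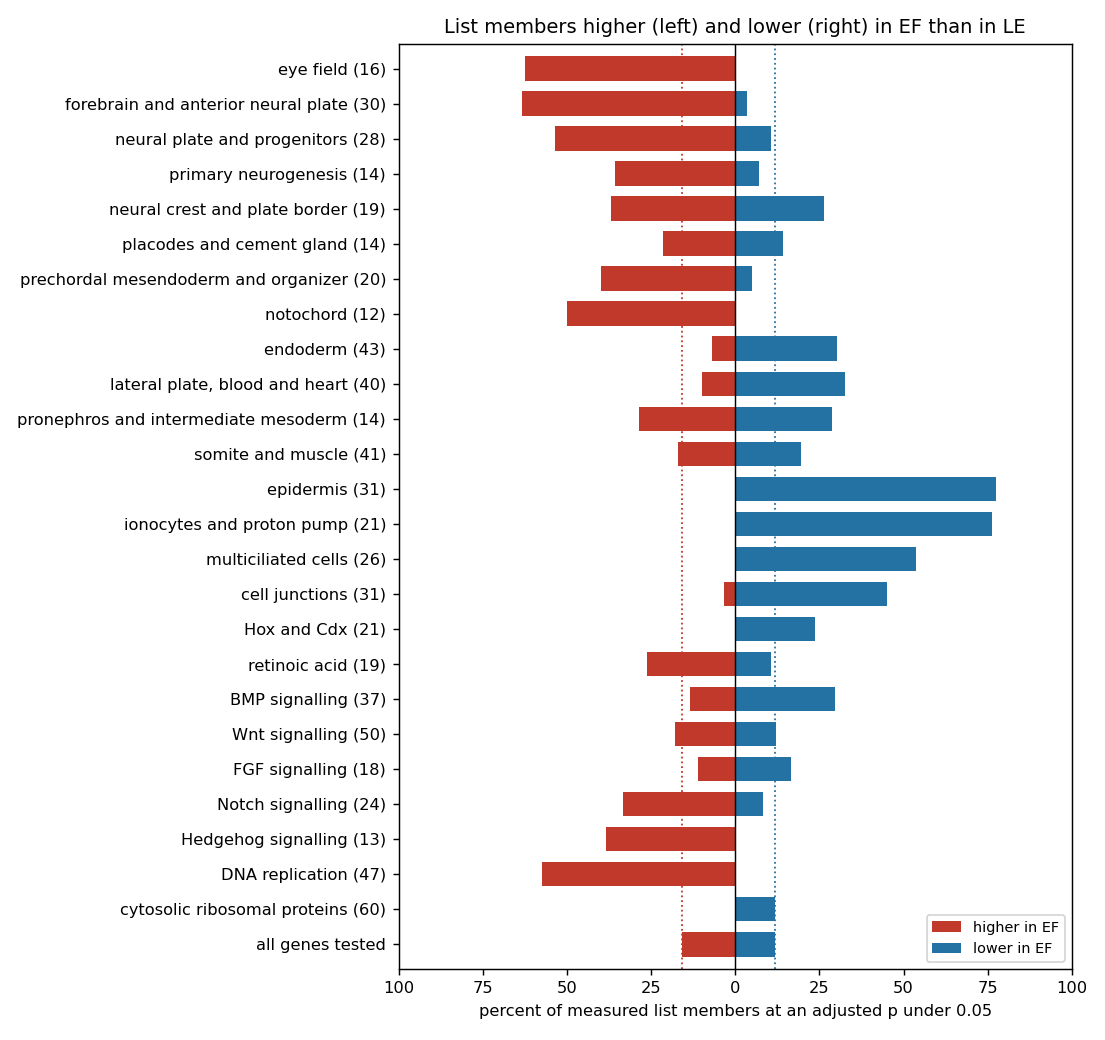
Share of the measured members of 25 gene lists (number in brackets) that were higher in EF (red, to the left) or lower in EF (blue, to the right) than in LE at an adjusted p under 0.05. The last bar and the dotted lines give all genes, 15.9% higher and 11.8% lower. Eye field, forebrain, neural plate and DNA replication lists exceed 50% on the left. On the right the epidermis list, the list of ionocytes and proton pump and the multiciliated list do.

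Genes of retinoic acid, a vitamin A derivative that patterns the trunk, differed in both directions. *Aldh1a2*, whose enzyme makes retinoic acid, had log2 signals of 3.40, 4.11 and 3.26 in EF, against 8.57, 8.59 and 8.42 in LE (log2 difference -4.94 ± 0.28 SE, adjusted p = 1.6e-07). *Cyp26c1*, whose enzyme breaks it down, had 7.43, 8.76 and 7.87 in EF, against 3.89, 2.79 and 3.1 in LE (log2 difference 4.76 ± 0.33 SE, adjusted p = 6.2e-07). The EF and LE arrays were more than 3 units apart for either gene. The gene *rdh10* (-1.94), which makes the precursor retinaldehyde, fell, and *crabp2* (0.65), which carries retinoic acid in the cell, rose, but its call was lost without any single array other than EF replicate 1. Of 19 list members 5 were higher and 2 lower, 26.3% and 10.5% against 15.9% and 11.8% of all genes. Without LE replicate 3 the counts were 3 and 2, and 2 were higher without EF replicate 3 or LE replicate 2.

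In the BMP pathway 4 ligand genes were lower in EF and 1 was higher, together with the antagonist chordin. *Bmp4* had log2 signals of 3.97, 3.19 and 3.67 in EF, against 5.97, 5.76 and 6.05 in LE (log2 difference -2.31 ± 0.18 SE, adjusted p = 1.9e-06), with no overlap. The ligand genes *bmp7.1* (-1.36), *bmp7.2* (-1.51) and *bmp2* (-0.89) were lower as well. The call of *bmp7.2* was lost without EF replicate 1 or LE replicate 1 or 2, and that of *bmp2* without EF replicate 2 or LE replicate 1 or 3. In contrast, *admp* (1.63), a BMP ligand of the organizer, was higher beside *chrd.1*. Of the targets and feedback inhibitors, *ventx2.1*, *ventx2.2*, *ventx3.2* (-0.74), *id2* (-1.67) and *smad7* (-1.30) were lower and *msx1*, *ventx1.1* and *id3* (0.69) higher. The call of *ventx3.2* was lost without any single EF or LE array. The protease gene *tll1* (-1.65), of the tolloid family that cleaves chordin, was lower. In all 11 of 37 members were lower, 29.7% against 11.8% of all genes, and 5 were higher. The counts were 8 lower and 5 higher without LE replicate 3.

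In the Wnt pathway 9 of 50 members were higher and 6 lower, 18% and 12% against 15.9% and 11.8% of all genes. These shares were near those of all genes. The rises included 3 secreted inhibitors, *sfrp1*, *dkk1* and *sfrp2*, whereas the secreted inhibitors *cer1* and *frzb*, also on the list, did not pass. *Sfrp1* had log2 signals of 5.35, 7.01 and 6.53 in EF, against 4.32, 3.43 and 3.05 in LE (log2 difference 2.70 ± 0.46 SE, adjusted p = 9.7e-04) and *sfrp2* had 9.64, 9.37 and 8.92 in EF, against 7.29, 7.60 and 7.64 in LE (log2 difference 1.80 ± 0.29 SE, adjusted p = 5.9e-04). The receptor gene *fzd3* (2.31), the repressing TCF gene *tcf7l1* (1.09) and the ligand genes *wnt8b* (2.04) and *wnt11b* (1.74) rose too. *Wnt8a*, a ligand of ventral and lateral mesoderm, fell, with 2.67, 4.97 and 3.98 in EF, against 6.44, 6.06 and 5.53 in LE (log2 difference -2.13 ± 0.48 SE, adjusted p = 0.0061), and its EF arrays spread widely below the LE range. *Dvl3* (-1.32), a cytoplasmic transducer, and *fzd10* (-1.10) fell as well. With all its probe sets averaged *fzd10* differed by -0.38 and did not pass (adjusted p = 0.12).

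Of the FGF list 2 of 18 were higher, the ligand gene *fgf8* (1.85) and the receptor gene *fgfr1* (1.11), and 3 were lower, with the immediate early gene *egr1* (-2.01) in front. These shares, 11.1% and 16.7%, were near those of all genes. The Notch list had 8 higher and 2 lower of 24, 33.3% and 8.33% against 15.9% and 11.8% of all genes. *Hes7.1*, a member of the hairy and enhancer of split family of repressors, had log2 signals of 8.31, 9.37 and 8.93 in EF, against 2.12, 2.84 and 2.28 in LE (log2 difference 6.46 ± 0.38 SE, adjusted p = 2.3e-07). A second probe set of *hes7.1* differed by 3.49. The first probe set was above the ceiling on 1 LE array and the second on 2, and for the first no EF array was within 5 units of an LE array. The ligand genes *jag1* (2.35) and *dll1*, the receptor gene *notch1* (1.04) and *mib1* (1.28), needed to activate the ligands, rose, and the related repressor gene *hes7.2* (-1.56) fell. In the Hedgehog list 5 of 13 were higher, 38.5% against 15.9% of all genes, and none was lower. The higher members were *shh*, *gli3*, the co-receptor gene *boc* (1.81), the transducer *smo* (1.01) and *nkx2-1* (0.60), a ventral forebrain gene.

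**Figure D4:**
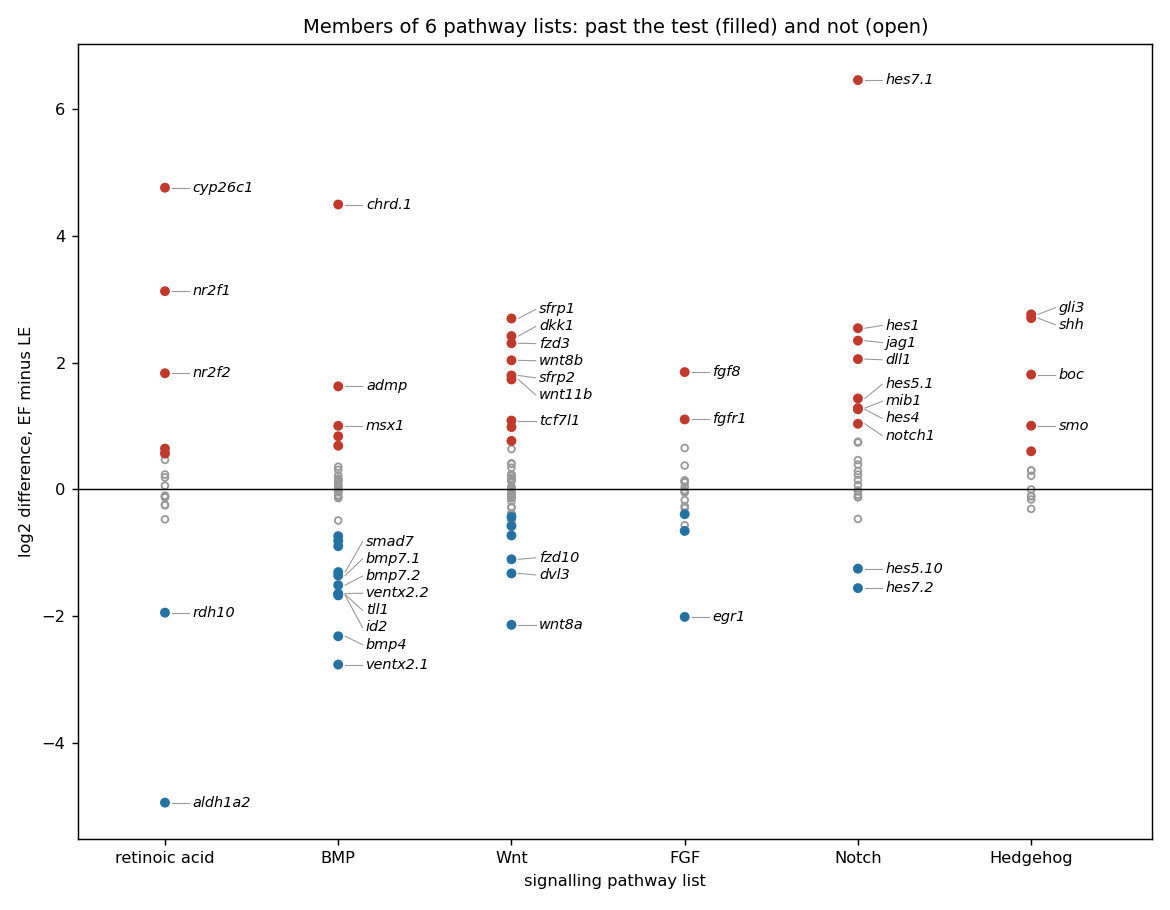
Log2 difference between EF and LE (vertical axis, EF minus LE) of the measured members of 6 signalling lists. Filled points passed the test, red higher and blue lower in EF, and open points did not. Names are given where the difference was 2-fold or more. The extremes are *hes7.1* at 6.46 and *aldh1a2* at -4.94.

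Many genes of DNA replication were higher in EF. Of 47 measured members 27 were higher and 0 lower, 57.4% against 15.9% of all genes, with a median of 0.73. At 2-fold or more 16 of the 47 were higher, against 6.13% of all genes at that limit. *Rrm2.2*, which helps make the deoxynucleotides, had log2 signals of 8.86, 8.02 and 8.77 in EF, against 6.61, 6.73 and 6.19 in LE (log2 difference 2.04 ± 0.27 SE, adjusted p = 1.4e-04). *Pcna*, the sliding clamp of DNA polymerase, had 8.75, 8.69 and 8.76 in EF, against 7.73, 7.74 and 7.47 in LE (log2 difference 1.09 ± 0.11 SE, adjusted p = 1.7e-05). *Mcm2*, a subunit of the helicase, had 8.48, 8.32 and 8.56 in EF, against 7.47, 7.39 and 7.48 in LE (log2 difference 1.00 ± 0.14 SE, adjusted p = 2.2e-04). The tissues did not overlap for any of the 3, as for 25.9% of all genes with EF above LE. *Orc1* (1.48), *pold3* (1.31) and *mcm4* (1.30) rose too. The count of higher members was 19 to 24 when any 1 of the 6 arrays was left out. It was 19 without LE replicate 3, and also without EF replicate 1 or 3. Genes of cytosolic ribosomal proteins had 7 lower and 0 higher of 60, 11.7% against 11.8% of all genes, with a median of -0.17. The count of lower members was 0 to 3 when any 1 of the 6 arrays was left out, and lowest without LE replicate 2.

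Several of the largest changes lay outside the lists. Among the rises, *pnp*, the gene of purine nucleoside phosphorylase, had log2 signals of 8.34, 8.13 and 8.25 in EF, against 3.81, 2.68 and 2.86 in LE (log2 difference 5.13 ± 0.26 SE, adjusted p = 5.9e-08). *Kng1*, the kininogen gene, had 7.91, 7.21 and 7.27 in EF, against 2.30, 3.00 and 2.53 in LE (log2 difference 4.85 ± 0.34 SE, adjusted p = 7.6e-07). Neither overlapped between the tissues. *Dgat2* (3.91), an enzyme of fat synthesis, *celf3* (3.87), a neural RNA-binding protein, *zc4h2* (3.68), a zinc finger protein, and *hyal2* (3.62), a hyaluronidase, completed the 15 largest rises among genes above the ceiling on at least 2 of the 3 arrays of each tissue. The other copies of *celf3* and *hyal2* behaved otherwise, with differences of 0.38 and -0.69. Among genes under the ceiling on all LE arrays, *xa-1* had 6.01, 6.42 and 7.13 in EF, against 2.21, 2.09 and 2.06 in LE and was at least 18.3-fold higher in EF. *Sh2d3c*, an adaptor protein, was at least 7.38-fold higher, *entpd3*, which splits extracellular nucleotides, at least 3.86-fold, *gtf2ird1*, a transcription factor, at least 3.72-fold, *alx1*, a homeobox gene of head mesenchyme, at least 1.88-fold, and *prph*, the peripherin gene, at least 1.81-fold. The call of *prph* was lost without any single array other than EF replicate 2.

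Among the falls, *fucolectin*, a lectin gene, had log2 signals of 3.92, 5.39 and 3.83 in EF, against 9.33, 9.44 and 9.35 in LE (log2 difference -4.99 ± 0.39 SE, adjusted p = 2.0e-06). *Eps8l3*, of a family that acts on actin, had 2.58, 3.73 and 4.14 in EF, against 8.2, 8.40 and 8.12 in LE (log2 difference -4.75 ± 0.95 SE, adjusted p = 0.0026). *Sdhb*, the iron-sulphur subunit of succinate dehydrogenase, had 4.24, 4.82 and 4.78 in EF, against 8.63, 8.59 and 8.44 in LE (log2 difference -3.94 ± 0.28 SE, adjusted p = 9.3e-07). The EF values of *fucolectin* and *eps8l3* spread over more than 1 unit, and their LE values lay close together. *Ctbs* (-3.92), a lysosomal glycosidase, and the transporter genes *slc22a4* (-3.81), *slc18a1* (-3.72) and *slc3a2* (-3.70) completed the 15 largest falls of that kind, after 3 genes with clone names only. Under the ceiling in EF were *atp12a*, a proton pump gene (at least 8.14-fold lower), *tll2l*, a tolloid-like protease gene (at least 7.2-fold), and *fam166b* (at least 6.08-fold). Of 310 called genes with further probe sets, 346 such probe sets lay above the ceiling on at least 3 of the 6 arrays. Of these 198 passed in the same direction, 8 in the opposite one and 140 did not pass.

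The values in PNP and whole embryos showed how these genes stood elsewhere in the embryo, without a further test. The mean log2 signal of *otx2* was 8.85 ± 0.14 in EF, 3.3 ± 0.71 in LE, 2.87 ± 0.36 in PNP and 7.5 ± 0.59 in whole embryos (SD, n = 3 each). That of *pax6* was 8.06 ± 0.40 in EF, 3.56 ± 0.43 in LE, 3.84 ± 0.51 in PNP and 5.98 ± 0.41 in whole embryos. Both were lowest in LE and PNP, whose ranges overlapped, and intermediate in whole embryos. *Foxb1* had 7.52 ± 0.29 in EF, 2.83 ± 0.21 in LE, 8.07 ± 0.12 in PNP and 5.81 ± 0.22 in whole embryos. *Chrd.1* had 8.38 ± 0.09 in EF, 3.88 ± 0.51 in LE, 10.08 ± 0.24 in PNP and 8.31 ± 0.16 in whole embryos, and *sfrp1* had 6.30 ± 0.85 in EF, 3.60 ± 0.66 in LE and 8.88 ± 0.42 in PNP. These 3 genes, which were higher in EF than in LE, thus had their highest mean in PNP.

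Among the genes lower in EF, *gata6* had mean log2 signals of 4.14 ± 0.37 in EF, 8.40 ± 0.06 in LE, 2.41 ± 0.22 in PNP and 7.95 ± 0.23 in whole embryos. *Itln1* had 5.3 ± 0.51 in EF, 10.45 ± 0.24 in LE, 3.00 ± 0.34 in PNP and 10.16 ± 0.14 in whole embryos. For both genes EF lay between PNP and LE. *Aldh1a2*, highest in LE, had 3.59 ± 0.46 in EF, 8.53 ± 0.09 in LE, 4.94 ± 0.60 in PNP and 6.31 ± 0.19 in whole embryos. *Cdx1*, *hoxa3* and *msgn1* were lowest in EF. *Cdx1* had 1.78 ± 0.26 in EF, 5.36 ± 0.18 in LE, 7.45 ± 0.15 in PNP and 6.56 ± 0.49 in whole embryos, and *msgn1* had 2.01 ± 0.17 in EF, 5.29 ± 0.42 in LE, 7.79 ± 0.19 in PNP and 6.0 ± 0.33 in whole embryos. The means of *hoxa3* in LE (6.33 ± 0.20), PNP (6.17 ± 0.68) and whole embryos (5.95 ± 0.42) did not differ beyond their spread.

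**Figure D5:**
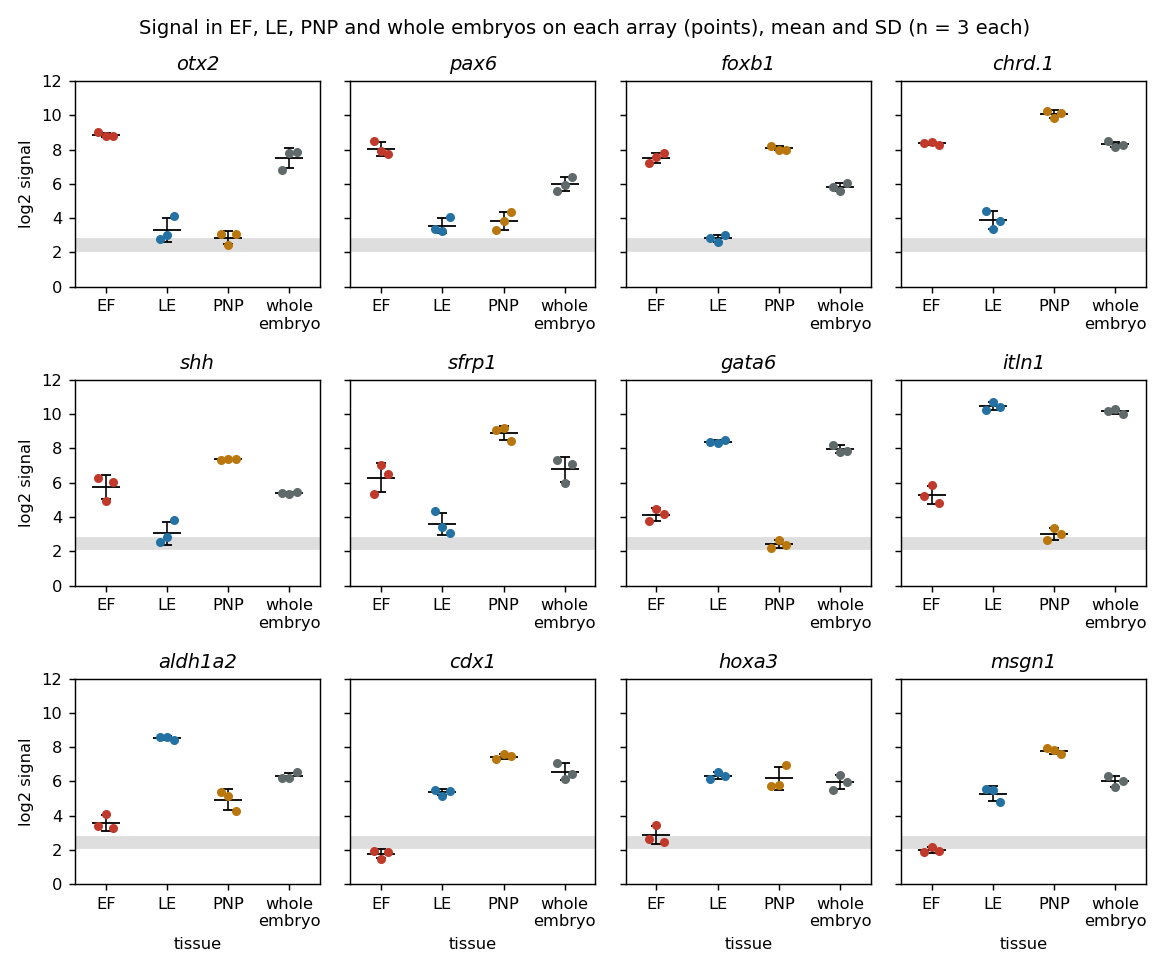
Log2 signal of 12 genes (vertical axis) on the 3 arrays each of EF, LE, PNP and whole embryos (horizontal axis, points), with mean and SD as black bars and the range of the background ceilings of all 12 arrays in grey. *Otx2* and *pax6* are high in EF and low in LE and PNP, *gata6* and *itln1* are high in LE and whole embryos, and *cdx1* and *msgn1* are highest in PNP and under the ceiling in EF.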

How the data were processed

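PolyA RNA of dissected tissue was hybridised to Affymetrix *X. laevis* Genome Arrays. The submitters' processing notes and the methods name RMA and GeneSpring GX. The deposited values are linear intensities, 1 per probe set and array, which the authors had background-corrected, normalised and summarised by RMA, and the methods state that signals were normalised to whole embryos.

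The log2 of the intensities was taken with no offset. Of 15611 probe sets 120 controls were left out, and 15491 were tested with limma 3.58.1 in R 4.3.3 on all 12 arrays, in 4 groups by title, as EF minus LE, with Benjamini-Hochberg adjustment over all 15491. Every adjusted p in the text comes from this limma model unless another fit is named. The precision is limited by 3 arrays per tissue. The ceiling was the highest of 27 *Bacillus* control probe sets on each array. By the platform annotation, with symbols updated through a RefSeq gene table for 9227 probe sets, 9304 probe sets had 1 symbol, 195 several and 5992 none, so that 319 of the probe sets called higher and 380 of those called lower could not be counted by gene. L and S copies of a gene were joined, and each gene took the probe set of the accession in the study's tables, or failing that its brightest by the mean of 12 arrays. Named genes were the 15 largest rises and falls above the ceiling in both tissues, the 8 largest bounds each way, and list members that passed or define a list. The members of the comparison and the gene lists were chosen with earlier results of these data known. Alternatives changed the test, normalisation, offset, filters, arrays and the replicate block. The model was tested on simulated data with 200 changed probe sets among 15491 in EF against LE. With 50 probe sets per size, 28% were recovered at 1.5-fold, 50% at 2-fold and 100% at 4-fold and at 8-fold. Recovery was judged on significance and sign, without the 2-fold limit of the calls. The median estimate was log2 0.55 at 1.5-fold and 0.99 at 2-fold, so calls with that limit would be rarer. Only probe sets brighter than the median were changed, so the shares do not cover dim ones. In the data 2191 probe sets were higher and 1661 lower at an adjusted p under 0.05, far more than the 200 changed here. The adjustment depends on that number, so the recovered shares need not hold for the data. Among the unchanged probe sets 14 were called. Figures were drawn with matplotlib 3.10.9.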

Additional observations from a re-analysis of the deposited data

How the results depend on the processing

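The counts of 858 probe sets higher and 976 lower in EF stayed within 1.5 times under most alternatives. With an unpaired t-test on the EF and LE arrays alone, adjusted by Benjamini-Hochberg, 531 were higher, and the cause was not tested. The study describes such a test for other comparisons and not for EF against LE. With an offset of 16 before the log, 325 were higher and 527 lower, and with no 2-fold limit 2191 and 1661. Leaving out single arrays gave 769 to 961 higher and 940 to 984 lower. Quantile normalisation moved the split to 776 higher and 1024 lower, and median centring to 815 and 1001. With the replicate number as a block 846 were higher and 970 lower. Deviations of same-numbered EF and LE arrays from their tissue means correlated at -0.11 to -0.03, against -0.03 to 0.08 for different numbers. For same-numbered arrays of the other tissue pairs the range was -0.17 to 0.21. With 3 pairs of EF and LE arrays, these values cannot tell whether the numbers mark shared days or females. The t-test also passed fewer list members, with 6 higher in the eye field list, 2 in the crest list, 4 in the organizer list, 2 in the notochord list, 1 in the Hedgehog list and 15 in the DNA replication list, and it lost the calls of *six6* (adjusted p = 0.10), *tbx3* (0.052), *nr2e1* (0.078), *sox2* (0.076), *shh* (0.058) and *dkk1* (0.084). Without EF replicate 2 the FGF list had 1 member lower, and the lateral plate list had 2 higher without any single array other than EF replicate 1 or LE replicate 1. With all probe sets of a gene averaged, *pax3* was higher in EF by 0.42 (adjusted p = 0.041), and *ckm*, *fzd10*, *ventx1.1* and *prph* did not pass. Of 194 named genes 47 lost their call with the same direction in at least 1 of up to 24 settings, *vsx1* gained one, and *pax3* alone changed direction. Genes under the ceiling in a tissue have only a bound there, and changes of 2-fold or less were found in part of the simulated cases.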

Other observations

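Some gene families were looked at only after single members had been seen among the largest changes, so that their counts are descriptions. Of 103 measured solute carrier genes, which move small molecules across membranes, 29 were lower and 7 higher in EF than in LE, against 11.8% and 15.9% of all genes. The falls included *slc38a2* (-3.45), an amino acid transporter gene, *slc7a5* (-2.19), which pairs with *slc3a2*, and *slc22a5* (-2.35), a carnitine transporter gene. The rises included *slc2a1* (1.11), a glucose transporter gene, which had log2 signals of 5.3, 5.57 and 5.75 in EF, against 4.22, 4.88 and 4.18 in LE.

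Of 11 aldehyde dehydrogenase genes 5 were lower in EF, with *aldh1l1* (-3.67), an enzyme of folate metabolism, next to *aldh1a2*, and 1 was higher. Of all genes 11.8% were lower and 15.9% higher, against 45.5% and 9.09% of these. Of 14 genes of mismatch and double-strand repair 4 were higher in EF (28.6%, against 15.9% of all genes) and 0 lower. The mismatch repair gene *msh6* had log2 signals of 8.09, 7.57 and 8.35 in EF, against 5.66, 5.33 and 4.43 in LE (log2 difference 2.86 ± 0.32 SE, adjusted p = 3.5e-05), and *bard1*, which acts in double-strand repair, had 6.37, 6.39 and 6.55 in EF, against 3.24, 4.31 and 3.63 in LE (log2 difference 2.71 ± 0.24 SE, adjusted p = 4.8e-06). Of 11 matrix metalloproteinase genes 2 were lower and 1 was higher, against 11.8% and 15.9% of all genes. The lower ones included *mmp3*, itself among the largest falls, and counts this small do not set the family apart from all genes. Of 27 axon guidance and Eph genes 6 were higher, led by *ntn5* (2.17) and *sema3a* (1.84), and 1 was lower. The shares were 22.2% and 3.7%, against 15.9% and 11.8% of all genes.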
